A study of Homo sapiens with 12 samples.

Results

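The AKR1C and UGT2B genes and 4 other enzymes of steroid and sterol metabolism were followed across 12 RNA-Seq libraries of enzalutamide-resistant prostate cancer cells in which CXCR7 was knocked down or left intact. The 10 genes were AKR1C1, AKR1C2, AKR1C3, UGT2B15, UGT2B17, UGT2B11, SRD5A1, HSD17B4, HSD17B11 and CYP7A1, out of 26441 genes in the deposited table. They were listed by name and chosen by their RPKM in shCXCR7 and LKO libraries, which were already known. Their differences between arms and between lines are therefore given as a description, without a test. The C4-2B-EnzR groups were C4-2B-EnzR shCXCR7 and C4-2B-EnzR LKO, kept in 10 µM enzalutamide, and the LNCaP-EnzR groups were LNCaP-EnzR shCXCR7 and LNCaP-EnzR LKO, kept in 2 µM enzalutamide. Each group had 3 libraries, from RNA taken 4 days after infection with a short hairpin against CXCR7 (shCXCR7) or with the control vector (LKO). LNCaP is a human prostate cancer line, C4-2B is a castration-resistant line derived from it, and EnzR marks cells grown to resist enzalutamide, a drug that blocks androgen signalling. All 4 groups therefore carried the drug and a lentiviral vector, and the drug dose went with the line. The sample titles also carry a P number that is the same within a line and differs between the lines, so it went with the line too. The paper describes the C4-2B-EnzR libraries as duplicates, which differs from the labels, and the labels were followed. Which hairpin was used is not given in the sources used here, nor whether replicates came from separate cultures, so errors and p values measure only how far libraries of a group scatter, part of which can be technical. In RNA from whole cultures, fewer cells of a kind and less RNA per cell cannot be told apart.

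Androgens are made and inactivated inside prostate cells by enzymes that add or remove hydrogen on the steroid and by enzymes that couple it to a sugar. AKR1C3 turns androstenedione into testosterone, SRD5A1 turns testosterone into dihydrotestosterone, and AKR1C1 and AKR1C2 reduce dihydrotestosterone and progesterone to weaker steroids. UGT2B15 and UGT2B17 attach glucuronic acid to dihydrotestosterone and its products so that they can leave the cell, and in LNCaP cells both genes are known to be held down by androgens. CYP7A1, known mainly from the liver, starts the conversion of cholesterol into bile acids.

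In GENCODE 44 (GRCh38) AKR1C1 lies at chr10:4963253-4983283 (+), AKR1C2 at chr10:4987775-5018031 (-) and AKR1C3 at chr10:5035354-5107686 (+), each with 9 exons in its canonical transcript. UGT2B17 lies at chr4:68537173-68576413, UGT2B15 at chr4:68646597-68670652 and UGT2B11 at chr4:69199951-69214748, all on the - strand. HSD17B11 lies at chr4:87336515-87391188 (-), SRD5A1 at chr5:6633427-6674386 (+) and HSD17B4 at chr5:119452465-119637199 (+). The copies within the AKR1C and UGT2B clusters are so alike that reads can be hard to assign. The first 60 bases of the coding sequence of each canonical GENCODE 44 transcript (GRCh38) are shown to let the copies be compared. Capitals mark bases that differ from AKR1C3 in the AKR1C genes and from UGT2B15 in the UGT2B genes.
AKR1C3: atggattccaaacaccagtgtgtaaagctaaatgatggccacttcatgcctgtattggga
AKR1C1: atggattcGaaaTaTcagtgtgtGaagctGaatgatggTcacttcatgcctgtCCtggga
AKR1C2: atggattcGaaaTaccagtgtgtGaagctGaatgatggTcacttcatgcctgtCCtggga
UGT2B15: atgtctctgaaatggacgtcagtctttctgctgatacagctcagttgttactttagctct
UGT2B17: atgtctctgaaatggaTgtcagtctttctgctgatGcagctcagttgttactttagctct
UGT2B11: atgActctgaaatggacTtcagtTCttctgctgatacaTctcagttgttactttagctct
Over the whole coding sequence, AKR1C1 and AKR1C2 were identical at 98.0% of aligned bases, AKR1C3 was identical to AKR1C1 at 91.4%, and UGT2B15 was identical to UGT2B17 at 96.5% and to UGT2B11 at 84.8%. Of all 50-base windows of the canonical transcript, 36.5% in AKR1C1, 47.3% in AKR1C2 and 18.7% in AKR1C3 also occurred in another place of the genome or in another gene's transcript. The share was 28.6% in UGT2B15, 24.2% in UGT2B17 and 43.5% in UGT2B11. It was 6.73% in SRD5A1, 4.04% in HSD17B11 and 0% in HSD17B4 and CYP7A1. How the authors' counting treated reads that fit several copies is not given in the sources used here, so levels of the 6 AKR1C and UGT2B genes are uncertain to that extent.

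The promoters of the AKR1C genes are shown because AKR1C3 differed in level between the arms of the LNCaP-EnzR line, and to set it beside its neighbours. Each line gives the 120 bases before the RefSeq start of the gene (GRCh38.p14), AKR1C3 at chr10:5048661-5048780 on the + strand, AKR1C1 at chr10:4963295-4963414 on the + strand and AKR1C2 at chr10:5003858-5003977 on the - strand. Capitals mark a TATA box read from the opposite strand, 26 bases before the start of AKR1C3.
AKR1C3: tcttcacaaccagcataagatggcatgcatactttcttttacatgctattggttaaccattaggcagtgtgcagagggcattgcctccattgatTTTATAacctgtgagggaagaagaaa
AKR1C1: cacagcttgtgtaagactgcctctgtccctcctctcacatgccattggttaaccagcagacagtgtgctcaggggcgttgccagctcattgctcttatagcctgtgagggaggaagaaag
AKR1C2: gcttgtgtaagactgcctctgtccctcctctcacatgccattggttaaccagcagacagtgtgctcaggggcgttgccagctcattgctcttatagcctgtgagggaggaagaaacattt
Promoters of 8 of the 10 genes were matched, from 250 bases before to 50 bases after the start, and searched on both strands for an antioxidant response element (TGACNNNGC), the half-site of an androgen response element (AGAACA), an HNF1 site (GTTAATNAT) and a TATA box (TATAAA). AKR1C1 and AKR1C2 held none of these words in that window. UGT2B15 held the androgen half-site, and UGT2B11 held the antioxidant element and the TATA word. These words are common, since 14.9% of 27305 human promoters held the androgen half-site, 13.6% the antioxidant element, 11.95% the TATA box and 0.75% the HNF1 site, and a match is no evidence of binding.

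The knockdown was seen in every shCXCR7 library. CXCR7, listed as ACKR3, stood at 22.2, 23.7 and 18.9 rescaled RPKM in C4-2B-EnzR shCXCR7 cells, against 83.2, 86.5 and 85.9 in C4-2B-EnzR LKO cells. ACKR3 was 56.3, 51.2 and 40.0 in LNCaP-EnzR shCXCR7 cells, against 123.6, 119.0 and 112.5 in LNCaP-EnzR LKO cells. Rescaled RPKM is the deposited RPKM, reads per kilobase of gene scaled to the size of the library, divided by a median-of-ratios factor of its library within its line. Mean ACKR3 was 25.3% of LKO in C4-2B-EnzR and 41.5% in LNCaP-EnzR cells (p = 0.1 in both, by an exact permutation test of 3 against 3 libraries, 2-sided, which cannot give a smaller p). One library, LNCaP-EnzR shCXCR7 replicate 3, stood apart, with 27.4% of its 35667712 reads in genes, against 67.0% to 75.5% of 9528739 to 14080781 reads in the other 11, and a background of 0.45 rescaled RPKM in genes that had no read elsewhere. Prostate luminal markers, KLK3 among them, were present in all libraries, with 11 markers summing to 811 to 837 in C4-2B-EnzR shCXCR7 against 1020 to 1043 in C4-2B-EnzR LKO libraries, and to 599 to 756 in LNCaP-EnzR shCXCR7 against 808 to 826 in LNCaP-EnzR LKO libraries. KLK3, the androgen-induced gene that encodes PSA, stood at 29.2, 32.8 and 27.4 in C4-2B-EnzR shCXCR7 against 112.2, 101.4 and 94.4 in C4-2B-EnzR LKO libraries, and at 6.63, 6.69 and 8.07 in LNCaP-EnzR shCXCR7 against 24.4, 25.7 and 27.4 in LNCaP-EnzR LKO libraries, and its part in the other genes' values was not tested.

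AKR1C3 was above 1 rescaled RPKM only in LNCaP-EnzR shCXCR7 libraries, of the 4 groups. It stood at 5.84, 5.55 and 5.56 rescaled RPKM in LNCaP-EnzR shCXCR7 libraries, against 0.44, 0.54 and 0.83 in LNCaP-EnzR LKO libraries, or 5.65 ± 0.16 against 0.60 ± 0.21 (SD, n = 3 each). The 2 groups were far apart, and in reads the difference was 541 against 46, a ratio of 9.32 after correction for depth with a 95% exact interval of 6.89 to 12.9 that covers counting error only. The log2 fold change was 2.82 (standard error 0.17) on the log2(rescaled RPKM + 0.25) scale, and 2.87 (standard error 0.21) without LNCaP-EnzR shCXCR7 replicate 3, in which the background corresponds to about 16.5 of 204 reads. In C4-2B-EnzR cells AKR1C3 was close to absent, with 2, 1 and 3 reads in shCXCR7 libraries against 0, 3 and 0 reads in LKO libraries. That is a ratio of 1.93 with an interval of 0.41 to 11.9, so no difference was detectable in that line at this depth.

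AKR1C1 and AKR1C2, the neighbours of AKR1C3, were near the limit of detection throughout. AKR1C1 had 0.31, 0.41 and 0.90 rescaled RPKM (6, 9 and 23 reads) in LNCaP-EnzR shCXCR7 libraries, against 0.21, 0.14 and 0.06 (3, 3 and 1 reads) in LNCaP-EnzR LKO libraries. The groups did not overlap, but the highest value came from the library with the background, which corresponds to about 11.5 of its 23 reads. Without that library the ratio of AKR1C1 reads was 2.75, with an interval of 1.06 to 7.97. AKR1C2 had 7, 8 and 30 reads in LNCaP-EnzR shCXCR7 libraries, against 1, 2 and 7 reads in LNCaP-EnzR LKO libraries, and the expected background of 34.7 reads exceeded its count of 30. Without that library its ratio was 1.93, with an interval of 0.81 to 4.79. In C4-2B-EnzR cells AKR1C1 had 3 reads over the 3 shCXCR7 libraries and 0 over the 3 LKO libraries, and AKR1C2 had 2 and 3 reads, all at or under the floor of 3 reads, so no fold is given. Neither gene reached the filter of 0.5 rescaled RPKM in at least 3 libraries in any comparison, and AKR1C3 did not reach it in the C4-2B-EnzR knockdown or between the LKO groups.

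**Figure D1:**
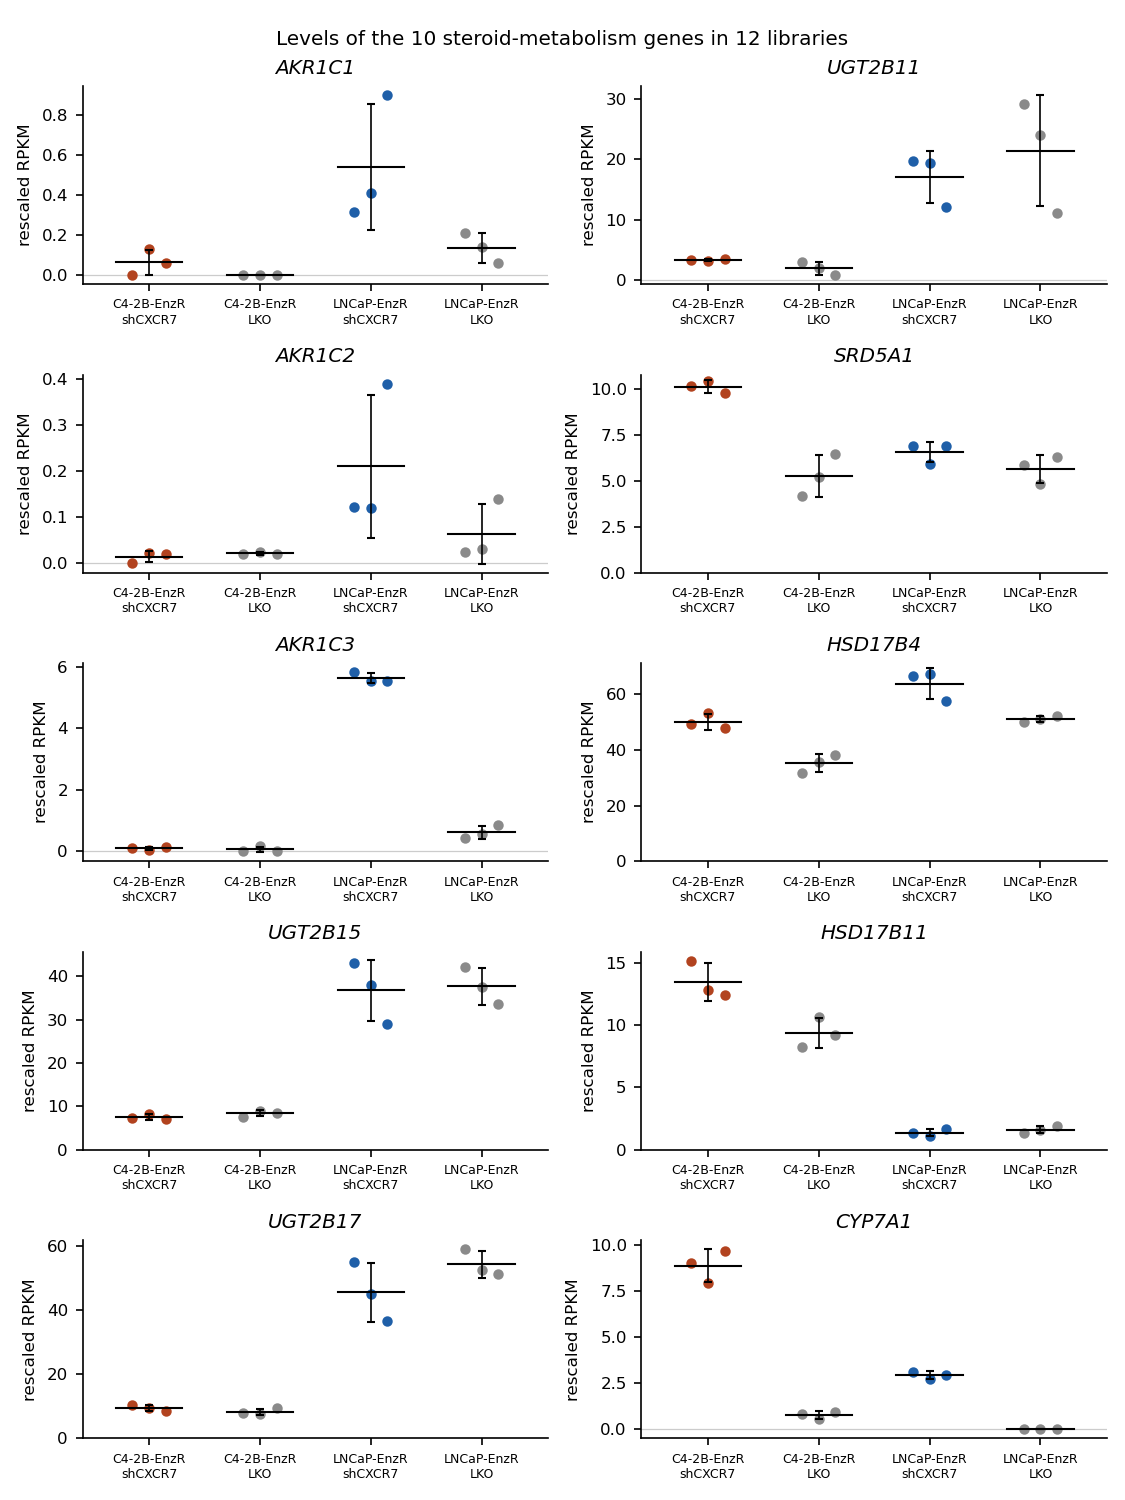
Level of each of the 10 genes (rescaled RPKM, linear axis that includes 0, each panel with its own range) in C4-2B-EnzR shCXCR7, C4-2B-EnzR LKO, LNCaP-EnzR shCXCR7 and LNCaP-EnzR LKO libraries. Points are the 3 libraries of a group, the horizontal line is their mean and the bar is ± 1 SD. AKR1C3 is at 5.55 to 5.84 in LNCaP-EnzR shCXCR7 and under 1 in the other 3 groups, and CYP7A1 is higher in shCXCR7 than in LKO in both lines.

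SRD5A1, the enzyme that makes dihydrotestosterone, differed between the arms in C4-2B-EnzR cells. SRD5A1 was 10.2, 10.5 and 9.79 rescaled RPKM in C4-2B-EnzR shCXCR7 libraries, against 4.15, 5.20 and 6.45 in C4-2B-EnzR LKO libraries, without overlap. In LNCaP-EnzR cells the groups overlapped, at 6.88, 5.93 and 6.91 in shCXCR7 against 5.84, 4.81 and 6.31 in LKO libraries. On the log2 scale the difference was 0.93 (standard error 0.14) in C4-2B-EnzR and 0.21 (standard error 0.11) in LNCaP-EnzR cells, where it was -0.08 in the values as deposited.

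HSD17B4, a peroxisomal enzyme that oxidizes estradiol and takes part in the breakdown of very long fatty acids and of bile acid precursors, was the most abundant of the 10 genes in C4-2B-EnzR cells. HSD17B4 was 49.2, 53.2 and 47.9 rescaled RPKM in C4-2B-EnzR shCXCR7 libraries, against 31.7, 35.5 and 38.3 in C4-2B-EnzR LKO libraries. LNCaP-EnzR values were 66.7, 67.3 and 57.5 in shCXCR7 libraries, against 50.2, 51.0 and 52.1 in LNCaP-EnzR LKO libraries. In both lines every shCXCR7 library was above every LKO library, with log2 fold changes of 0.51 (standard error 0.09) in C4-2B-EnzR and 0.32 (standard error 0.10) in LNCaP-EnzR cells. The LNCaP-EnzR value was 0.39 (standard error 0.05) without replicate 3 of shCXCR7 and 0.009 in the values as deposited, where that library's low share of reads in genes is not corrected.

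HSD17B11 is a dehydrogenase found on lipid droplets that can oxidize androstanediol. It stood at 15.2, 12.8 and 12.4 rescaled RPKM in C4-2B-EnzR shCXCR7 libraries, against 8.27, 10.6 and 9.17 in C4-2B-EnzR LKO libraries, again without overlap. LNCaP-EnzR cells had 1.37, 1.09 and 1.66 in shCXCR7 libraries, against 1.32, 1.57 and 1.88 in LKO libraries, which overlapped. On the log2 scale the difference was 0.51 (standard error 0.12) in C4-2B-EnzR and -0.18 (standard error 0.19) in LNCaP-EnzR cells. The lowest C4-2B-EnzR value, 8.27, was above the highest LNCaP-EnzR value, 1.88.

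The UGT2B genes, the glucuronidating enzymes, were more abundant in LNCaP-EnzR than in C4-2B-EnzR cells, and UGT2B15 and UGT2B17 lay close in the 2 arms. UGT2B15 stood at 43.1, 38.0 and 29.1 rescaled RPKM in LNCaP-EnzR shCXCR7 libraries, against 42.1, 37.4 and 33.6 in LNCaP-EnzR LKO libraries. UGT2B15 in C4-2B-EnzR cells was 7.30, 8.29 and 7.10 in shCXCR7 libraries, against 7.61, 9.02 and 8.54 in LKO libraries. The groups overlapped in both lines, with log2 fold changes of -0.14 (standard error 0.10) in C4-2B-EnzR and -0.05 (standard error 0.15) in LNCaP-EnzR cells. UGT2B17 stood at 55.0, 44.9 and 36.7 in LNCaP-EnzR shCXCR7 libraries, against 59.1, 52.4 and 51.2 in LNCaP-EnzR LKO libraries. UGT2B17 in C4-2B-EnzR cells was 10.2, 9.43 and 8.44 in shCXCR7 libraries, against 7.74, 7.64 and 9.40 in LKO libraries. These groups overlapped as well, and the log2 fold changes of 0.18 (standard error 0.11) in C4-2B-EnzR and -0.27 (standard error 0.14) in LNCaP-EnzR cells had opposite signs. Without LNCaP-EnzR shCXCR7 replicate 3, the LNCaP-EnzR values were 0.11 (standard error 0.10) for UGT2B15 and -0.12 (standard error 0.10) for UGT2B17.

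UGT2B11, a less studied member whose main substrates are lipids and not androgens, had the largest SD relative to its mean of the 3 UGT2B genes in both LKO groups. It stood at 3.36, 3.22 and 3.56 rescaled RPKM in C4-2B-EnzR shCXCR7 libraries, against 3.01, 2.05 and 0.88 in C4-2B-EnzR LKO libraries. It stood at 19.8, 19.5 and 12.2 in LNCaP-EnzR shCXCR7 libraries, against 29.1, 24.0 and 11.2 in LNCaP-EnzR LKO libraries. Replicate 3 was the lowest of both LKO groups, and the groups overlapped in LNCaP-EnzR but not in C4-2B-EnzR cells. On the log2 scale the difference was 0.83 (standard error 0.33) in C4-2B-EnzR and -0.24 (standard error 0.30) in LNCaP-EnzR cells. Leaving out 1 library at a time gave 0.40 to 1.165 in C4-2B-EnzR and -0.66 to 0.02 in LNCaP-EnzR cells.

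Because 2 UGT2B genes in 1 library share its depth and scaling, their ratio within a library does not depend on either. The ratio of UGT2B17 to UGT2B15 RPKM was 1.40, 1.14 and 1.19 in C4-2B-EnzR shCXCR7 libraries, against 1.02, 0.85 and 1.10 in C4-2B-EnzR LKO libraries. It was 1.28, 1.18 and 1.26 in LNCaP-EnzR shCXCR7 libraries, against 1.40, 1.40 and 1.52 in LNCaP-EnzR LKO libraries. The groups did not overlap in either line and the direction was opposite, with means of 1.24 ± 0.14 against 0.99 ± 0.13 in C4-2B-EnzR and 1.24 ± 0.05 against 1.44 ± 0.07 in LNCaP-EnzR cells (SD, n = 3 each). The nearest C4-2B-EnzR libraries, 1.14 in shCXCR7 and 1.10 in LKO, lay close and rest on 429 to 491 reads per gene. Counting error of the ratio was not computed. The ratio of UGT2B11 to UGT2B15 was 0.45 ± 0.06 in C4-2B-EnzR shCXCR7 against 0.24 ± 0.15 in C4-2B-EnzR LKO libraries, and 0.46 ± 0.05 in LNCaP-EnzR shCXCR7 against 0.56 ± 0.19 in LNCaP-EnzR LKO libraries (SD, n = 3 each), and the groups overlapped in both lines. The 557 windows of 50 bases that UGT2B15 and UGT2B17 share could move reads between them, and their part in the ratio was not tested.

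**Figure D2:**
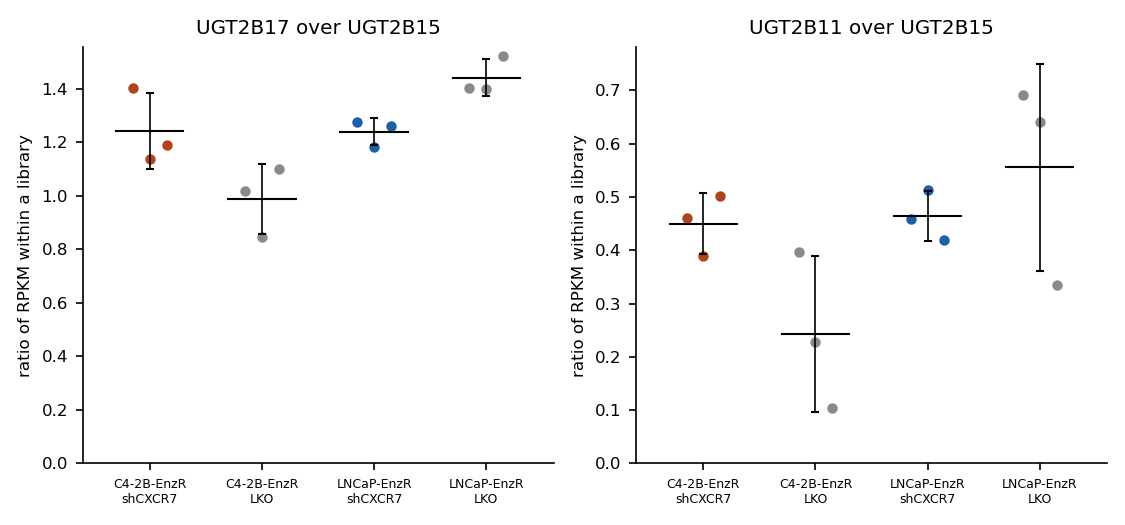
Ratio of UGT2B17 to UGT2B15 (left) and of UGT2B11 to UGT2B15 (right), each from the RPKM of both genes in 1 library, on linear axes from 0. Points are libraries, lines are group means and bars are ± 1 SD (n = 3). On the left the shCXCR7 libraries lie above the LKO libraries in C4-2B-EnzR cells and below them in LNCaP-EnzR cells.

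CYP7A1, the first and rate-limiting enzyme of bile acid synthesis, had the largest log2 difference between the arms among the fitted genes in both lines, except that in LNCaP-EnzR cells AKR1C3 had a larger one with a pseudocount of 1 (2.06, against 1.95 for CYP7A1). It stood at 9.03, 7.93 and 9.65 rescaled RPKM in C4-2B-EnzR shCXCR7 libraries, against 0.85, 0.54 and 0.94 in C4-2B-EnzR LKO libraries. It stood at 3.12, 2.72 and 2.95 in LNCaP-EnzR shCXCR7 libraries, against 0, 0.022 and 0.029 in LNCaP-EnzR LKO libraries. The LNCaP-EnzR LKO libraries held 0, 1 and 1 reads, against 125, 125 and 157 in LNCaP-EnzR shCXCR7 libraries, and the ratio of reads was 161 with an interval of 44.4 to 1336. In C4-2B-EnzR cells the ratio of means was 11.4. On the log2 scale the difference was 3.17 (standard error 0.17) in C4-2B-EnzR and 3.57 (standard error 0.28) in LNCaP-EnzR cells, and since all 3 LNCaP-EnzR LKO values lie under the pseudocount, it depended on that choice, at 1.95 with a pseudocount of 1 and 5.50 with 0.05. The background corresponds to about 24.0 of the 157 reads of LNCaP-EnzR shCXCR7 replicate 3, and the ratio was 160 without that library.

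CYP7A1 is a liver gene, so liver markers were read beside it. The 12 hepatocyte markers summed to 1.95 to 2.89 rescaled RPKM in C4-2B-EnzR shCXCR7 against 1.87 to 2.79 in C4-2B-EnzR LKO libraries. They summed to 3.30 to 14.9 in LNCaP-EnzR shCXCR7 against 2.38 to 3.90 in LNCaP-EnzR LKO libraries, the highest in the library with the background. In the other LNCaP-EnzR shCXCR7 libraries, replicates 1 and 2, ALB (0.16 and 0.17), APOA1 (0.40 and 0.63) and TTR (1.08 and 1.89) were also above every LNCaP-EnzR LKO library (at most 0.043, 0.21 and 0.88 for these genes in that order), and their part in the CYP7A1 values was not tested. Among other hepatocyte markers, SERPINA1 and APOH were at 0 in replicates 1 and 2, and APOB was at 0 and 0.013, the 0.013 above every LNCaP-EnzR LKO library. LNCaP-EnzR LKO libraries had at most 0.0085, 0.069 and 0.0068 for SERPINA1, APOH and APOB. Markers of kidney, fibroblasts and blood were likewise highest in the library with the background among LNCaP-EnzR libraries, at sums of 7.85, 9.02 and 10.3, against at most 2.08, 3.99 and 6.56 in LNCaP-EnzR LKO libraries. In C4-2B-EnzR shCXCR7 libraries, where CYP7A1 was highest, ALB stood at 0.036, 0 and 0 rescaled RPKM and APOB, APOH and SERPINA1 were at 0 in all 3, while APOA1 stood at 1.08, 0.29 and 0.93 and TTR at 0.61, 0.85 and 0.18, against 0.73, 0.69 and 0.44 for APOA1 and 0.97, 0.56 and 0.86 for TTR in C4-2B-EnzR LKO libraries. HNF4A and NR1H4, liver regulators of CYP7A1, were also at 0 in the 6 C4-2B-EnzR libraries, and NR0B2, its repressor, was at 0 in the 3 C4-2B-EnzR shCXCR7 libraries. In LNCaP-EnzR cells HNF4A and NR1H4 were at 0 in the LKO libraries. They stood at 0.013, 0.011 and 0.97 and at 0.028, 0.024 and 0.48 in LNCaP-EnzR shCXCR7 libraries, the highest in the library with the background. Their part in the CYP7A1 values was not tested. NR5A2, another such regulator, was detected in all 12 libraries, at 0.062, 0.20 and 0.096 in C4-2B-EnzR shCXCR7 against 0.063, 0.040 and 0.061 in C4-2B-EnzR LKO libraries, and at 0.25, 0.25 and 1.00 in LNCaP-EnzR shCXCR7 against 0.037, 0.024 and 0.063 in LNCaP-EnzR LKO libraries.

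**Figure D3:**
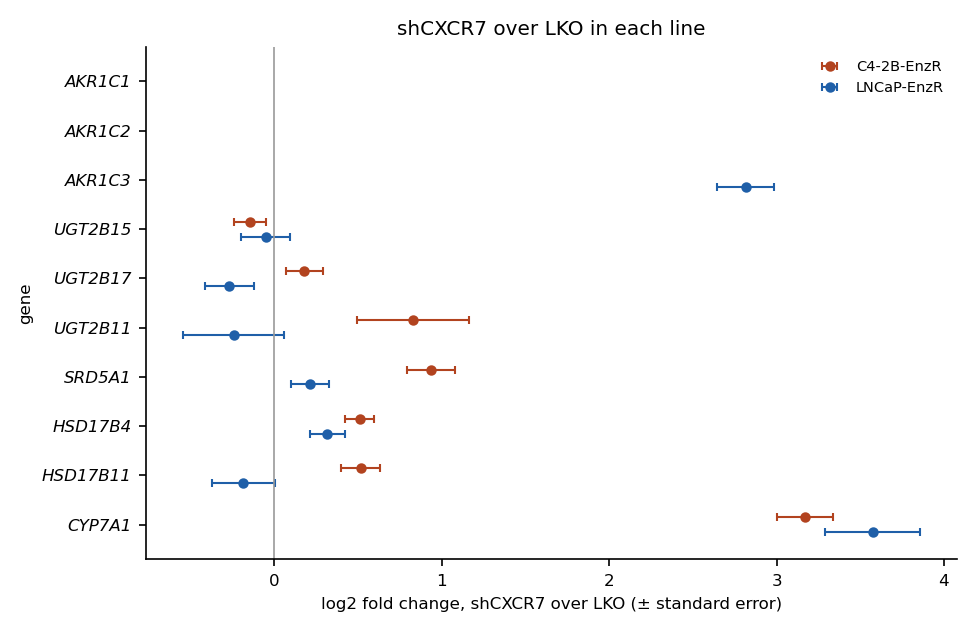
Log2 fold change of shCXCR7 over LKO for each gene that reached the filter, on the log2(rescaled RPKM + 0.25) scale, in C4-2B-EnzR (red, upper) and LNCaP-EnzR (blue, lower) cells. Bars are ± 1 standard error from limma, and the 3 AKR1C genes lack a point where they were under the filter. CYP7A1 is at 3.17 and 3.57, AKR1C3 at 2.82 in LNCaP-EnzR, and UGT2B15 lies close to 0 in both lines.

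In C4-2B-EnzR cells 4 of the 7 genes that could be fitted passed an adjusted p of 0.05 as higher in shCXCR7 (SRD5A1, HSD17B4, HSD17B11 and CYP7A1) and 0 as lower, where 20.9% of 13344 genes were called higher and 21.3% lower. In LNCaP-EnzR cells 3 of 8 passed as higher (AKR1C3, HSD17B4 and CYP7A1) and 0 as lower, where 16.0% of 13094 genes were called higher and 21.3% lower. Since the genes were chosen with this comparison known, and since AKR1C3 and CYP7A1 entered the LNCaP-EnzR fit only through the group where they are high, these counts describe the choice and carry no test. The fitted genes had a median log2 fold change of 0.51 in C4-2B-EnzR cells, against -0.0022 over all genes tested, and 0.08 in LNCaP-EnzR cells, against -0.021 over all genes tested.

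The same genes were compared between the lines. The comparison of C4-2B-EnzR with LNCaP-EnzR was fitted once in LKO and once in shCXCR7 libraries, over factors computed within each arm, and line and enzalutamide dose cannot be told apart in it. All 3 UGT2B genes were lower in C4-2B-EnzR cells in both arms. In LKO libraries UGT2B17 was 7.85 ± 0.91 in C4-2B-EnzR against 62.1 ± 4.89 in LNCaP-EnzR cells, a log2 difference of -2.95 (standard error 0.10 from limma). UGT2B15 was 7.98 ± 0.66 against 43.2 ± 4.87 (log2 difference -2.40, standard error 0.10), with C4-2B-EnzR first (SD, n = 3 each). UGT2B11 was 1.89 ± 1.02 against 24.6 ± 10.6 in the same order (log2 difference -3.56, standard error 0.44). In shCXCR7 libraries the differences were -2.48 for UGT2B17, -2.48 for UGT2B15 and -2.47 for UGT2B11, with standard errors from 0.145 to 0.173. These are other libraries, but the values of both arms were known when the genes were chosen, so no p is given.

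HSD17B11 went the other way and was higher in C4-2B-EnzR cells, by 2.15 on the log2 scale in LKO (standard error 0.14) and by 2.85 in shCXCR7 libraries (standard error 0.14). HSD17B4 was lower in C4-2B-EnzR cells, by a log2 difference of -0.81 in LKO (standard error 0.08) and -0.60 in shCXCR7 libraries (standard error 0.11). CYP7A1 was higher in C4-2B-EnzR cells, by 1.27 in shCXCR7 libraries (standard error 0.11). In LKO libraries its log2 difference was 1.86. CYP7A1 reached the filter there only through the C4-2B-EnzR libraries, which fixes its direction. SRD5A1 had a log2 difference of -0.37 in LKO libraries (standard error 0.17) and of the opposite sign, 0.36, in shCXCR7 libraries (standard error 0.09). Leaving out 1 library at a time gave -0.51 to -0.22 in LKO and 0.30 to 0.405 in shCXCR7 libraries. AKR1C3 stood at 0.07 ± 0.04 in C4-2B-EnzR against 5.90 ± 0.22 in LNCaP-EnzR shCXCR7 libraries (SD, n = 3 each), a log2 difference of -4.25 (standard error 0.19). It was chosen for its high level in LNCaP-EnzR shCXCR7 cells.

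Leaving out CYP7A1, whose direction the filter fixed in LKO libraries, 1 of the 6 other genes fitted there passed as higher and 4 as lower in C4-2B-EnzR cells, where 32.8% of 13372 genes were called higher and 32.0% lower. In shCXCR7 libraries, leaving out AKR1C3, 3 of 7 passed as higher and 4 as lower, where 27.5% of 13564 genes were called higher and 23.7% lower. Without LNCaP-EnzR shCXCR7 replicate 3, these counts were again 3 and 4 of 7, where 4235 of 13162 genes were called higher and 3838 lower. The 3 UGT2B differences then lay between -2.72 and -2.65. In the values as deposited 2 of these calls in shCXCR7 libraries were lost, those of SRD5A1 (log2 difference 0.78) and HSD17B4 (-0.17). The counts between the lines, like those of the knockdown, describe the choice of genes and carry no test.

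**Figure D4:**
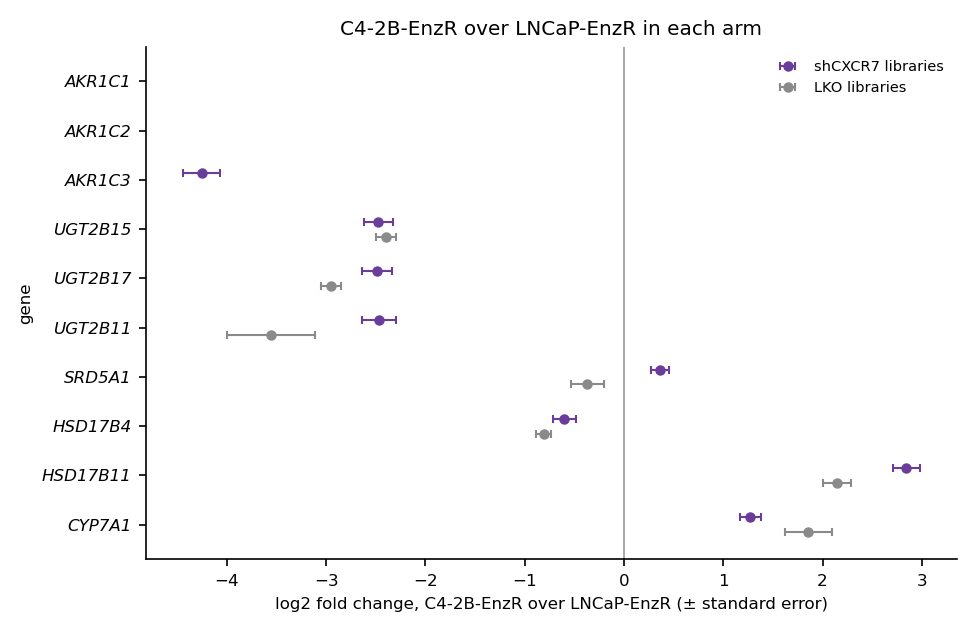
Log2 fold change of C4-2B-EnzR over LNCaP-EnzR for each gene that reached the filter, in shCXCR7 libraries (purple, upper) and LKO libraries (grey, lower). Bars are ± 1 standard error from limma. The 3 UGT2B genes lie between -3.56 and -2.40 and HSD17B11 between 2.15 and 2.85 in both arms, and SRD5A1 changes sign between the arms.

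Other genes of the same pathways were read from 7 lists of 148 genes without the 10, of which 92 could be tested in C4-2B-EnzR and 90 in LNCaP-EnzR cells. In C4-2B-EnzR cells 34 were higher and 16 lower in shCXCR7 than in LKO, and in LNCaP-EnzR cells 16 were higher and 19 lower (limma, adjusted p under 0.05 over all genes tested). The shares over all genes tested were 20.9% higher and 21.3% lower in C4-2B-EnzR and 16.0% higher and 21.3% lower in LNCaP-EnzR cells, so the LNCaP-EnzR counts lie near the background. The median log2 fold change of the lists was 0.20 in C4-2B-EnzR, against -0.0022 over all genes, and -0.083 in LNCaP-EnzR cells, against -0.021 over all genes. Without LNCaP-EnzR shCXCR7 replicate 3 the LNCaP-EnzR counts were 24 higher and 21 lower of 89, where 2803 of 12841 genes were called higher and 3132 lower. Without C4-2B-EnzR shCXCR7 replicate 1 the C4-2B-EnzR count of higher genes was 22, where 1827 of 13105 genes were called higher.

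Of the genes around glucuronidation, UGDH was higher and GUSB and ABCC4 were lower in shCXCR7 than in LKO cells of both lines. UGDH, which makes the UDP-glucuronic acid that UGT2B enzymes use, was 21.4 ± 0.55 rescaled RPKM in C4-2B-EnzR shCXCR7 against 11.3 ± 1.63 in C4-2B-EnzR LKO cells, and 18.4 ± 2.13 in LNCaP-EnzR shCXCR7 against 6.52 ± 1.19 in LNCaP-EnzR LKO cells (SD, n = 3 each). Its log2 fold change was 0.91 (standard error 0.11, adjusted p = 0.000519 from limma) in C4-2B-EnzR and 1.47 (standard error 0.13, adjusted p = 1.97e-05) in LNCaP-EnzR cells. GUSB, the lysosomal enzyme that removes glucuronic acid, fell by 1.41 and 1.35 on the log2 scale in the same order of lines, to 14.0 ± 0.28 in C4-2B-EnzR shCXCR7 against 37.7 ± 3.90 in C4-2B-EnzR LKO cells, and to 7.96 ± 0.47 in LNCaP-EnzR shCXCR7 against 20.7 ± 0.60 in LNCaP-EnzR LKO cells. ABCC4, a pump that exports conjugated steroids, was also lower, with log2 fold changes of -1.15 in C4-2B-EnzR and -1.59 in LNCaP-EnzR cells (adjusted p = 0.000207 and 2.64e-06). In all, 3 of 11 tested genes of glucuronidation and sulfation were higher and 4 lower in C4-2B-EnzR shCXCR7 cells, and 1 of 12 was higher and 5 were lower in LNCaP-EnzR shCXCR7 cells. Among all genes tested 20.9% were called higher and 21.3% lower in C4-2B-EnzR, and 16.0% and 21.3% in LNCaP-EnzR cells. UGT2B28, a neighbour that shares 369 windows of 50 bases with UGT2B11, was picked out after its values were seen, so it is given without a test. It was at 1.14, 1.5 and 1.15 rescaled RPKM in LNCaP-EnzR shCXCR7 libraries, against 5.18, 3.92 and 1.44 in LNCaP-EnzR LKO libraries (log2 fold change -1.17, standard error 0.34). In C4-2B-EnzR cells UGT2B28 was at 0.44, 0.14 and 0.55 in shCXCR7 against 1.29, 0.79 and 0.52 in LKO libraries (log2 fold change -0.84, standard error 0.355). The groups overlapped in both lines.

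Among hydroxysteroid dehydrogenases and reductases, HSD17B10, a mitochondrial enzyme that oxidizes steroids and branched fatty acids, rose in both lines. It was 81.4 ± 2.90 rescaled RPKM in C4-2B-EnzR shCXCR7 against 23.1 ± 1.15 in C4-2B-EnzR LKO cells, and 72.7 ± 7.05 in LNCaP-EnzR shCXCR7 against 26.0 ± 2.13 in LNCaP-EnzR LKO cells (SD, n = 3 each). On the log2 scale HSD17B10 rose by 1.80 (standard error 0.07, adjusted p = 6.63e-06 from limma) in C4-2B-EnzR and 1.47 (standard error 0.11, adjusted p = 7.71e-06) in LNCaP-EnzR cells. HSDL2, a related peroxisomal protein, rose by 0.71 and HSD17B14 fell by 0.60 on the log2 scale in C4-2B-EnzR cells. Their LNCaP-EnzR groups were apart in the same directions. HSDL2 was 29.7 ± 3.56 in LNCaP-EnzR shCXCR7 against 23.3 ± 1.34 in LKO cells, and HSD17B14 was 1.79 ± 0.39 against 3.22 ± 0.27. In LNCaP-EnzR cells the retinol dehydrogenases RDH11 and RDH10 fell by 1.34 and 0.82, with RDH11 at 111 ± 17.4 in shCXCR7 against 280 ± 7.91 in LKO cells. Both were also lower without overlap in C4-2B-EnzR cells. RDH11 was 114 ± 3.37 in C4-2B-EnzR shCXCR7 against 134.5 ± 9.91 in LKO cells, and RDH10 was 2.64 ± 0.38 against 3.415 ± 0.28. The list had 3 higher and 3 lower genes of 14 in C4-2B-EnzR and 2 higher and 7 lower of 15 in LNCaP-EnzR cells, with a median log2 fold change of -0.11 in C4-2B-EnzR and -0.21 in LNCaP-EnzR cells. Shares called higher and lower over all genes were 20.9% and 21.3% in C4-2B-EnzR and 16.0% and 21.3% in LNCaP-EnzR cells.

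Of the genes of androgen and steroid synthesis, which include the cholesterol importer STAR and the steroid P450 enzymes, 8 could be tested in C4-2B-EnzR and 7 in LNCaP-EnzR cells. H6PD, which supplies reducing power to steroid dehydrogenases in the endoplasmic reticulum, rose in both, by 0.89 (standard error 0.08, adjusted p = 0.000169 from limma) in C4-2B-EnzR and 1.39 (standard error 0.13, adjusted p = 2.52e-05) in LNCaP-EnzR cells. FDX1, which passes electrons to mitochondrial P450 enzymes, and TSPO, a cholesterol-binding protein of the outer mitochondrial membrane, rose by 0.58 and 0.35 in C4-2B-EnzR cells. The call of TSPO was lost without C4-2B-EnzR LKO replicate 2, shCXCR7 replicate 1 or shCXCR7 replicate 2 (adjusted p = 0.0715 to 0.0752 from limma). These 3 genes were the ones called in C4-2B-EnzR cells, and H6PD was the one called in LNCaP-EnzR cells. For comparison, 20.9% of all genes were called higher and 21.3% lower in C4-2B-EnzR, and 16.0% and 21.3% in LNCaP-EnzR cells.

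Other bile acid genes were read beside CYP7A1. CYP39A1, which hydroxylates oxysterols on another route to bile acids, rose in both lines, to 2.52 ± 0.29 rescaled RPKM in C4-2B-EnzR shCXCR7 against 0.52 ± 0.22 in C4-2B-EnzR LKO cells, and to 3.90 ± 0.14 in LNCaP-EnzR shCXCR7 against 1.34 ± 0.27 in LNCaP-EnzR LKO cells (SD, n = 3 each). Its log2 fold changes were 1.88 (standard error 0.22) in C4-2B-EnzR and 1.40 (standard error 0.14, adjusted p = 3.24e-05 from limma) in LNCaP-EnzR cells. The C4-2B-EnzR value is given without a test. CYP39A1 stood at 0.40, 0.38 and 0.78 in C4-2B-EnzR LKO libraries. It reached the filter in that line only through the shCXCR7 libraries, which fixes its direction. ABCB11, the bile salt export pump, was at 6.02, 6.90 and 6.74 in C4-2B-EnzR shCXCR7 libraries, against 0.98, 1.65 and 1.54 in C4-2B-EnzR LKO libraries, higher by 2.07 on the log2 scale (standard error 0.17, adjusted p = 9.4e-05 from limma). SLC27A2, which activates fatty acids and bile acid precursors with coenzyme A, fell by 0.89 in C4-2B-EnzR and by 0.39 in LNCaP-EnzR cells, and SLC27A5, the bile acid ligase, fell by 0.33 in LNCaP-EnzR cells. In LNCaP-EnzR cells the call of SLC27A2 was lost without LKO replicate 1 (adjusted p = 0.0765 from limma) or shCXCR7 replicate 2 (adjusted p = 0.0824), and that of SLC27A5 was lost without any 1 library except shCXCR7 replicate 3 (adjusted p = 0.0585 to 0.0875). The list, CYP39A1 counted, had 4 higher and 2 lower genes of 13 in C4-2B-EnzR and 1 higher and 2 lower of 11 in LNCaP-EnzR cells. Of all genes tested, 20.9% were higher and 21.3% lower in C4-2B-EnzR, and 16.0% and 21.3% in LNCaP-EnzR cells.

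Peroxisomal beta-oxidation, in which HSD17B4 works, had calls in both directions. In C4-2B-EnzR cells 8 of 15 genes were higher and 4 lower in shCXCR7, where 20.9% of all genes were called higher and 21.3% lower. In LNCaP-EnzR cells 5 were higher and 4 lower, where the shares were 16.0% and 21.3%. Without shCXCR7 replicate 3 the LNCaP-EnzR counts were 7 and 4, where 2803 of 12841 genes were called higher and 3132 lower. The median log2 fold change of the list was 0.41 in C4-2B-EnzR and 0.14 in LNCaP-EnzR cells. ACOX3, an oxidase of branched fatty acids, rose by 1.27 (standard error 0.09) in C4-2B-EnzR and 0.97 (standard error 0.13) in LNCaP-EnzR cells, and EHHADH, an enzyme with a parallel role to HSD17B4, rose by 1.00 in LNCaP-EnzR cells. EHHADH was also higher without overlap in C4-2B-EnzR cells, at 4.10 ± 0.48 rescaled RPKM in shCXCR7 against 2.20 ± 0.42 in LKO. ACAA1, the thiolase of the last step, fell to 9.32 ± 0.27 rescaled RPKM in C4-2B-EnzR shCXCR7 against 23.1 ± 2.35 in C4-2B-EnzR LKO cells, and to 13.7 ± 0.42 in LNCaP-EnzR shCXCR7 against 41.2 ± 1.73 in LNCaP-EnzR LKO cells (SD, n = 3 each). Adjusted p from limma for ACAA1 and ACOX3 lay between 1.51e-06 and 0.000221. CRAT, a carnitine acyltransferase, fell by 1.11 in C4-2B-EnzR cells (adjusted p = 0.00312). CRAT was also lower without overlap in LNCaP-EnzR cells, at 8.21 ± 0.49 in shCXCR7 against 15.3 ± 0.65 in LKO.

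AKR1C genes are known targets of the stress regulator NRF2 in human cells, so its other targets were counted. HMOX1, heme oxygenase, rose by 1.28 on the log2 scale in each line (standard error 0.10 in each, adjusted p = 8.44e-05 in C4-2B-EnzR and 7.84e-06 in LNCaP-EnzR cells from limma), and ME1, malic enzyme, rose by 0.73 in C4-2B-EnzR and 0.68 in LNCaP-EnzR cells. GCLM, a subunit of the enzyme that starts glutathione synthesis, rose by 0.56 in LNCaP-EnzR cells, and TXNRD1, thioredoxin reductase, fell by 0.68 in C4-2B-EnzR cells. TXNRD1 was also lower without overlap in LNCaP-EnzR cells, at 24.4 ± 3.16 rescaled RPKM in shCXCR7 against 35.1 ± 0.60 in LKO. GCLM groups overlapped in C4-2B-EnzR cells, at 10.6 ± 0.32 against 8.26 ± 1.99. Of 20 targets 10 were higher and 2 lower in C4-2B-EnzR shCXCR7 cells, where 20.9% of all genes tested were called higher and 21.3% lower. In LNCaP-EnzR shCXCR7 cells 6 were higher and 1 lower, where the shares were 16.0% and 21.3%. Without replicate 3 the LNCaP-EnzR counts were 10 and 2, where 2803 of 12841 genes tested were called higher and 3132 lower. Of the other aldo-keto and carbonyl reductases, 0 of 10 passed in LNCaP-EnzR cells by limma, with 3 at an unadjusted p under 0.05 and 1 called by voom. In C4-2B-EnzR cells 3 of 11 were higher, with DHRS4 at 0.81 and DHRS2 at 0.63, and 1 was lower, DHRS3, a retinal reductase, at -0.86. The call of DHRS2 was lost without any 1 library except C4-2B-EnzR LKO replicate 3 (adjusted p = 0.0746 to 0.116 from limma). In LNCaP-EnzR cells DHRS2 was low but also without overlap, at 0.77, 0.52 and 1.44 in shCXCR7 against 0.40, 0.15 and 0.098 in LKO libraries.

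**Figure D5:**
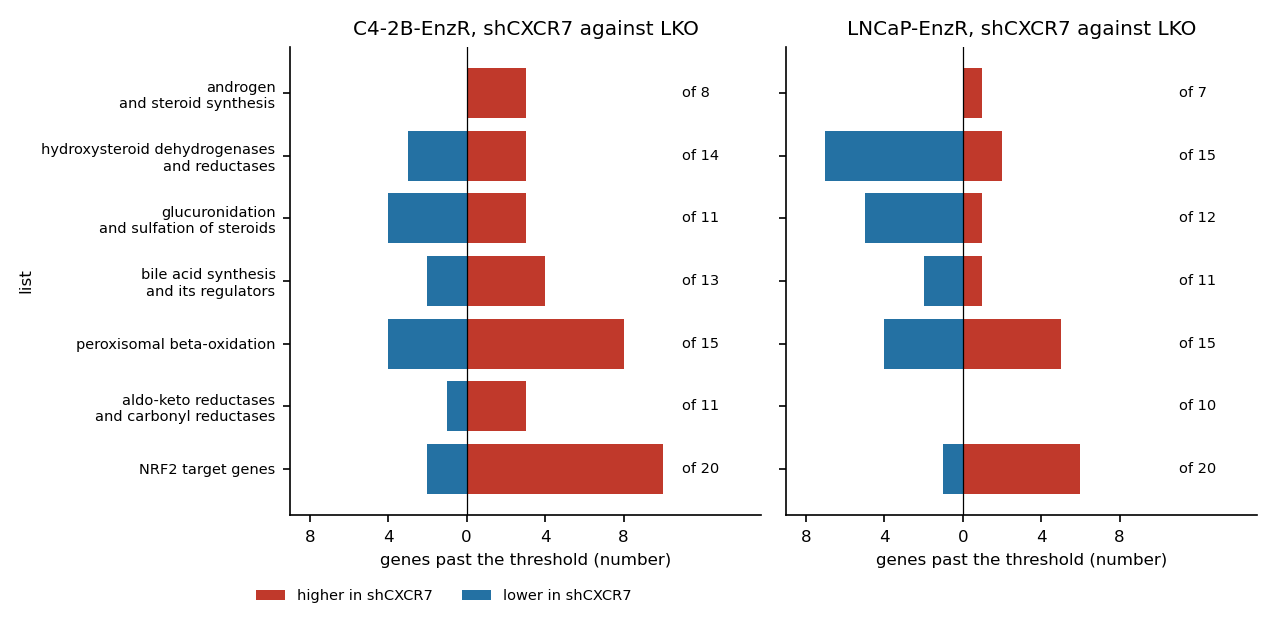
Number of genes in each of the 7 pathway lists that were higher (red, to the right) or lower (blue, to the left) in shCXCR7 than in LKO libraries at an adjusted p under 0.05 from limma, in C4-2B-EnzR (left panel) and LNCaP-EnzR cells (right panel). The number at the right of each bar is the number of genes tested, and the 10 genes of the report are left out. Peroxisomal beta-oxidation has 8 higher and 4 lower of 15 in C4-2B-EnzR and 5 higher and 4 lower of 15 in LNCaP-EnzR cells. Over all genes tested, 20.9% were called higher and 21.3% lower in C4-2B-EnzR, and 16.0% and 21.3% in LNCaP-EnzR cells.

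Whether the knockdown effect differed between the lines was tested for the same pathway genes by an interaction term. Of 95 tested, 8 had a more positive effect in C4-2B-EnzR than in LNCaP-EnzR cells and 1 a more negative one, where 5.14% of 14241 genes were called more positive and 4.88% more negative. RDH11, which fell in both lines, did so less in C4-2B-EnzR cells, at 118, 113 and 111 rescaled RPKM in shCXCR7 against 137, 143 and 124 in LKO libraries, while LNCaP-EnzR cells had 128, 112 and 93.6 in shCXCR7 against 274, 278 and 289 in LKO libraries (difference of log2 fold changes 1.10, standard error 0.15, adjusted p = 0.00134 from limma). PAPSS1, which makes the sulfate donor for steroid sulfation, differed by 0.88 (adjusted p = 0.00315), with overlapping groups in C4-2B-EnzR and 17.2 ± 1.66 in shCXCR7 against 27.8 ± 0.96 in LKO in LNCaP-EnzR cells. ABCC1, a pump of glutathione conjugates, differed by -0.61 (adjusted p = 0.0326). ABCB11 differed by 1.55 (standard error 0.43, adjusted p = 0.0388), but it stood at 0.021, 0.046 and 0.40 in LNCaP-EnzR shCXCR7 against 0.014, 0.018 and 0 in LNCaP-EnzR LKO libraries, the 0.40 in the library with a background of 0.45, and its sign turned with voom on the recovered reads, at -0.33. The call of ABCB11 held when LNCaP-EnzR shCXCR7 replicate 3 was left out and was lost without any other library (adjusted p = 0.0559 to 0.102 from limma), and that of ABCC1 was lost without 8 of the 12 libraries, left out singly (adjusted p = 0.0577 to 0.0865). The count of 8 more positive genes was 3 to 5 without any 1 of 7 libraries, the 3 LNCaP-EnzR LKO, the 3 C4-2B-EnzR shCXCR7 and C4-2B-EnzR LKO replicate 2. Those fits called 396 to 600 of all genes more positive, against 732 with all libraries.

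The genes most like 3 of the 10 across the 12 libraries were found by Pearson's r of log2(rescaled RPKM + 0.25) over 12639 genes. The libraries share line, arm and depth, so each r describes mainly the 4 group levels. AKR1C3 was most like KRT6C (r = 0.98), ZNF736 (0.97), CRISPLD2 (0.97) and SGK2 (0.97). UGT2B17 was most like TFPI, TTTY15, ZNF91 and S100A7 (r = 0.99 in each), with UGT2B15 at 0.99, UGT2B11 at 0.94 and HSD17B11 at -0.97. CYP7A1 was most like STK40, CPTP, DMTN and MED16 (r = 0.99 in each), and had 0.77 with SRD5A1 and 0.03 with AKR1C3.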

How the data were processed

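The authors aligned RNA-Seq reads to GRCh38 (hg38) and counted them with STAR, and the RPKM values they deposited cover 26475 lines, of which 26441 named genes with values were kept. The sources used here do not give the counting annotation or the strand setting. Whole reads were recovered from the deposited RPKM for all 25030 of 25030 genes above 0, within 0.02 reads, and gave 6382010 to 9834306 reads in genes per library. Median-of-ratios factors were computed within each line, or within each arm for comparisons of lines.

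Tests used limma 3.58.1 in R 4.3.3 on log2(rescaled RPKM + 0.25), with a variance trend and Benjamini-Hochberg adjustment over all genes with at least 0.5 rescaled RPKM in at least 3 libraries, called under 0.05. Sequences came from GENCODE 44 and RefSeq. Python 3.11.15 made the tables and figures.

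The 10 genes and the lists were chosen with earlier results of these data known. Named pathway genes were up to 3 per list and line with the largest change among those past the threshold, a mean of at least 1 rescaled RPKM and groups without overlap, up to 5 for the interaction, and the 4 most alike genes for 3 of the 10. Alternatives were the values as deposited, quantile normalization, other pseudocounts and filters, robust moderation, voom on recovered reads, a replicate block, background subtraction and leaving out each library. Some genes that this rule or the marker lists include are not reported here by name.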

Additional observations from a re-analysis of the deposited data

Results flagged for a closer look

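The knockdown effect differed between the lines, by an interaction term in limma, for 6 pathway genes. The differences of log2 fold changes, C4-2B-EnzR minus LNCaP-EnzR, were 1.55 for ABCB11 (adjusted p = 0.0388), 1.10 for RDH11 (adjusted p = 0.00134), 0.88 for PAPSS1 (adjusted p = 0.00315), 0.60 for FDX1 (adjusted p = 0.025), 0.48 for TSPO (adjusted p = 0.0398) and -0.61 for ABCC1 (adjusted p = 0.0326).

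The ratio of UGT2B17 to UGT2B15 was higher in all shCXCR7 than in all LKO libraries of C4-2B-EnzR cells and lower in all of LNCaP-EnzR cells. In C4-2B-EnzR cells the nearest libraries lay close, at 1.14 in shCXCR7 and 1.10 in LKO. The 2 changes differed by 0.55 on the log2 scale, and the difference was not tested.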

How the results depend on the processing

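Leaving out 1 library at a time gave 22 to 34 pathway genes higher and 11 to 16 lower in C4-2B-EnzR shCXCR7 cells, 12 to 24 higher and 15 to 21 lower in LNCaP-EnzR shCXCR7 cells, 3 to 9 more positive and 0 to 2 more negative for the difference between lines, 1 to 2 of the 10 genes higher and 4 to 5 lower in C4-2B-EnzR than LNCaP-EnzR LKO cells, and 3 higher and 4 to 5 lower in C4-2B-EnzR than LNCaP-EnzR shCXCR7 cells, CYP7A1 and AKR1C3 counted. The 1 higher gene came from leaving out any 1 C4-2B-EnzR LKO library. Among all genes tested, leaving out 1 library gave 1827 to 2795 higher and 2133 to 3016 lower in C4-2B-EnzR shCXCR7 cells. In LNCaP-EnzR shCXCR7 cells it gave 1396 to 2803 higher and 2106 to 3132 lower. In the values as deposited, LNCaP-EnzR cells had 3 higher and 4 lower pathway genes, and the difference between lines 0 and 0. The same values gave 236 higher and 371 lower of 13169 genes in LNCaP-EnzR cells. For the difference between lines they gave 20 more positive and 33 more negative of 14204 genes. Quantile normalization gave 27 higher pathway genes in LNCaP-EnzR cells, against 16, where 3221 of 13169 genes were called higher, against 2098 of 13094. For the difference between lines, 8 more positive and 1 more negative became 4 and 0 without a filter, and the 1 more negative became 5 with quantile normalization, 5 with background subtraction, 4 with voom and 2 with a pseudocount of 1. A filter at 1 RPKM left 1 of the 10 genes higher in C4-2B-EnzR than LNCaP-EnzR LKO cells, since CYP7A1 fell under it. ABCB11 turned to -0.33 between lines with voom. The cause was not tested for the others.

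Replicate numbers did not pair the libraries, since same-numbered deviations correlated at -0.098 to 0.04. With a replicate block the difference between lines had 3 more positive and 0 more negative genes, C4-2B-EnzR cells had 28 higher and 12 lower and LNCaP-EnzR cells 16 higher and 18 lower pathway genes.

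With the values as deposited, 21 of the named results lost the threshold. Genes under the filter, AKR1C1 and AKR1C2 among them, are limited by depth, at 0 to 30 reads per library.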
